A study of Cercocebus atys with 16 samples.

Results

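The cytosolic ribosomal protein genes build the protein part of the ribosome that translates nuclear mRNA. They were taken as every gene symbol in the array files that starts with RPL or RPS followed by a digit, together with RPLP0, RPLP1, RPLP2 and RPSA. The S6 kinase symbols starting with RPS6K (5), the Y-linked RPS4Y symbols (2) and 1 symbol with a pseudogene suffix P were left out. The rule gave 40 genes of the 11472 symbols on the array, 26 of the large and 14 of the small subunit, read by 138 probes of 60 bases. Of these probes 134 were bright enough to be tested, and 39 genes had at least 1 of them. RPL5, RPL11 and RPS6 do not occur among the symbols. Another 222 probes that the files describe as ribosomal proteins under locus or transcript names are not members, and are described separately.

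The samples came from 4 sooty mangabeys (Cercocebus atys), each carrying SIV (simian immunodeficiency virus) infection, and consist of double-negative T cells: CD3-bearing blood lymphocytes with neither CD4 nor CD8 on their surface. The labels give the CD4 status of animals FNV and FKN as normal and of FBR and FTV as low; no uninfected animal was included, and the labels give no age. From each animal, unstimulated cells were compared with cells given CD3 and CD28 antibodies for 4 hours, after isolation with magnetic beads (a CD4, CD8 and CD16 depletion and a CD3 selection, purity above 98%) and an overnight rest. Each animal had 4 arrays with 2 colours on 1 slide: stimulated against unstimulated RNA in both dye orientations, and a self-self array of each RNA. The array was designed on the rhesus macaque, and mismatches to the mangabey can weaken the signal of a probe. Levels of the members below are therefore compared across samples for 1 probe at a time, and none is set against that of another probe. Only the summed levels of cell type markers combine several probes.

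Ribosomal proteins are made in equal amounts for assembly with ribosomal RNA in the nucleolus, and their mRNAs are among the most abundant in lymphocytes. Most of these mRNAs begin with a run of pyrimidines, the TOP motif, through which mTOR signalling and the binding protein LARP1 control how well they are translated, so translation can change with no change of mRNA level. A few members have a near relative, or paralog, that is expressed in some tissues or acts in assembly: RPL7L1 is a nucleolar relative of RPL7, RPL3L and RPL10L are muscle and testis relatives of RPL3 and RPL10, and RPS27L is a relative of RPS27 that p53 can induce.

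The probes on which the results turn are printed here from the array files, 5′ to 3′, with the position that the files give on the rhesus build rheMac2; gene structure of that build was not used here. RPL7L1 is shown because it alone rose, and its probes lie at chr4:42770033-42770092 (start 476 in the transcript), chr4:42770094-42770320 and chr4:42770096-42770322 (starts 537 and 539) and chr4:42770304-42770363 (start 580), all on the plus strand. Capitals mark the 4 bases that differ between the probes at 537 and 539 over the 58 bases they share.
RPL7L1-476: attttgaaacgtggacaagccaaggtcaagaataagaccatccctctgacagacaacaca
RPL7L1-537: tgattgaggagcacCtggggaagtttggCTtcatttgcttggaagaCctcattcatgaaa
RPL7L1-539: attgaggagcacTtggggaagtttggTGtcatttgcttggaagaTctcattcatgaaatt
RPL7L1-580: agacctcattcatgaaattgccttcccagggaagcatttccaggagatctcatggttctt
RPL28 and RPL10 are shown as members that fell. RPL28 has a single probe, at chr19:61408976-61409165 (plus strand), and the RPL10 probe at chrX:152420362-152420420 (plus strand) is 1 of 3.
RPL28-1589: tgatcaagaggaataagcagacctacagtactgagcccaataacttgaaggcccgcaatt
RPL10-429: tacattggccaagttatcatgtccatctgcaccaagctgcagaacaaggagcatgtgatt

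RPL13A, RPL15 and RPL22 are shown because their probes gave different answers. RPL13A-551 lies at chr19:55753480-55753538 and RPL13A-1063 at chr19:55753977-55754036, both on the plus strand. RPL15-424 lies at chr2:166373880-166373939 and RPL15-685 at chr2:166374141-166374200, both on the plus strand. RPL22-348 lies at chr1:9190129-9190188 and RPL22-803 at chr1:9189674-9189733, both on the minus strand. Of the probes nearer the end of the transcript, 30 of the 60 bases are printed, and capitals mark the polyadenylation hexamer AATAAA.
RPL13A-551: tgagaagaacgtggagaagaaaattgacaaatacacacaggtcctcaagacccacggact
RPL13A-1063: tttgtaatgagaAATAAAttgcttttaacg
RPL15-424: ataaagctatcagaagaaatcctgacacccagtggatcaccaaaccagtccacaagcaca
RPL15-685: caggtgttatttgtctgttaaaactagtct
RPL22-348: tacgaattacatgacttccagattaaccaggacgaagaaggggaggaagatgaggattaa
RPL22-803: aatgacagtgtcAATAAAatgcgggtttct
The hexamer AATAAA, read on the printed strand, occurs in 30 of the 138 member probes (21.7%) and in 3539 of all 43603 distinct probes (8.1%); its reverse complement TTTATT occurs in 4 (2.9%) and 1550 (3.6%). A match is a run of letters, not a shown cleavage site.

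RPL24, a large-subunit protein at the interface with the small subunit, was the member that could not be tested. Its single probe, at chr2:21870387-21870446 on the minus strand, was well above background in 1 of 16 unstimulated and 0 of 16 stimulated channels. The probe holds TTTATT, marked in capitals, in the 30 bases printed. A probe at chr2:21870467-21870526, also placed on the minus strand and described as highly similar to human RPL24, is not a member by its name.
RPL24-named: taacgaattcgcTTTATTacctccggagac
RPL24-like: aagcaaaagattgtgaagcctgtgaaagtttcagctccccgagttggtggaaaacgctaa
RPL24-like gave log2 ratios of stimulated over unstimulated of 0.07, 0.08, 0.01 and 0.03 in FNV, FKN, FBR and FTV, a mean of 0.05 ± 0.04 (adjusted p = 0.469). The other 2 tested probes, described as L24, gave 0.03 and 0.03, neither past the test.

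The main comparison asked how each mRNA changed with stimulation. After 4 hours 1 of the 39 tested members, RPL7L1, rose, 6 fell (RPL13A, RPL28, RPL10, RPL18, RPS26 and RPL3), and 32 did not pass limma's moderated test of the 4 animals' log2 ratios at a Benjamini-Hochberg adjusted p under 0.05. Over all 23267 tested features 19.2% rose and 21.0% fell. Under loess within each array, the changes of the family were small: 26 of the 39 mean log2 ratios lay within 0.1 of 0. The median was -0.07, against -0.01 over all features. It was -0.12 with the ribosomal protein probes kept out of the loess curve, and other scalings are given below. The spread between animals under loess was also small, with a median SD of 0.096 against 0.16 over all features. In bulk RNA a change in the mRNA per cell cannot be told apart from a change in which cells were present.

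**Figure D1:**
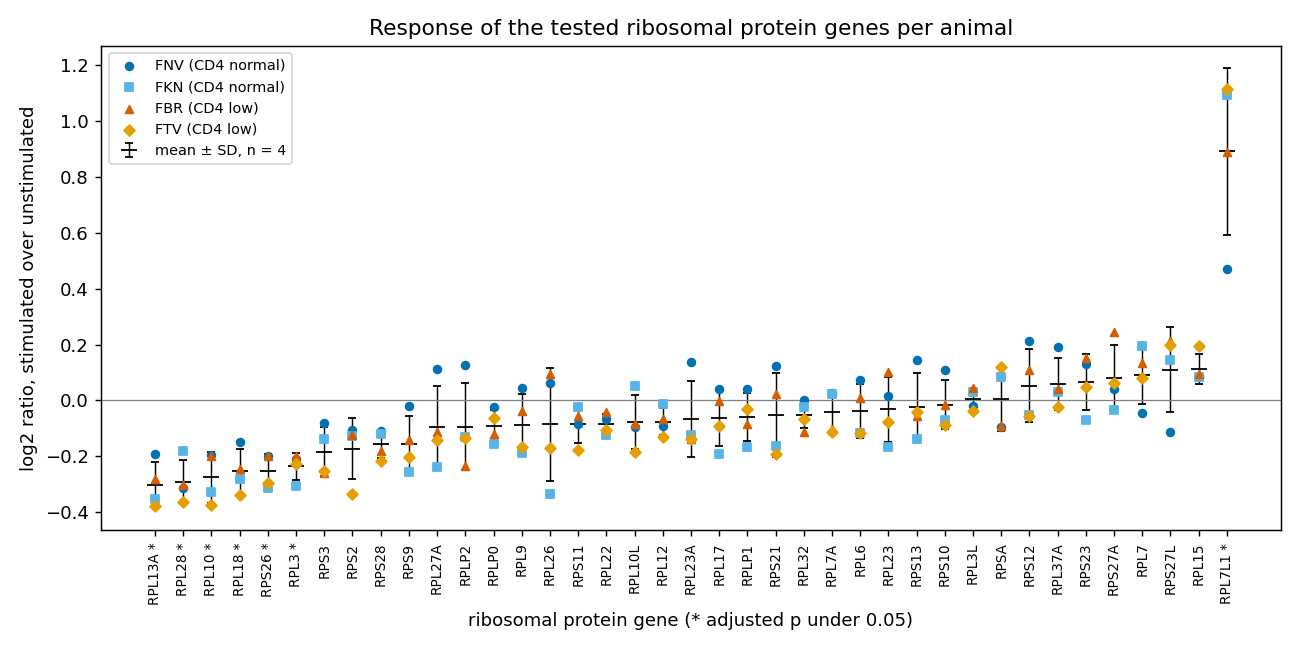
Log2 ratio of stimulated over unstimulated RNA (y axis) for each of the 39 tested ribosomal protein genes (x axis, ordered by mean), with 1 symbol per animal, a bar for the mean ± SD (n = 4 animals) and an asterisk where the adjusted p was under 0.05. RPL7L1 stands apart at 0.89 ± 0.30, while the other means lie between -0.30 and 0.11.

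RPL7L1, the nucleolar relative of RPL7, had log2 ratios of 0.47 in FNV, 1.09 in FKN, 0.89 in FBR and 1.12 in FTV. All 4 animals were above 0, FNV the least. The mean rise was 0.89 ± 0.30 (SD, n = 4), or 1.85-fold (limma adjusted p = 0.00432). It was higher on 8 of 8 ratio arrays, from 0.35 to 1.16, and the self-self arrays, which hold each RNA alone, gave a rise of 0.75 ± 0.22 (limma adjusted p = 0.00544). Its 5 probes, which include the 4 printed above, all rose, by 0.82 to 0.92. The normalised log2 level of the brightest probe was 9.11, 10.37, 10.53 and 10.25 in unstimulated cells of FNV, FKN, FBR and FTV, and 9.56, 11.33, 11.35 and 11.29 in stimulated cells. FNV was the lowest animal in both conditions, so the 2 conditions overlap across animals although each animal rose. The stimulated level of FNV includes its stimulated self-self array, on which fewer spots were above background, as described below. When each array was only centred on its median, the rise was 0.95 and missed the test (limma adjusted p = 0.0651), with FNV far from the other animals under that scaling.

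The canonical partner RPL7, a large-subunit protein that binds ribosomal RNA, gave -0.04, 0.20, 0.13 and 0.08 in FNV, FKN, FBR and FTV, with a mean of 0.09 ± 0.10 (adjusted p = 0.284). FNV was on the other side of 0 from the remaining animals. The other paralogs did not pass: RPS27L gave 0.11 ± 0.15 (adjusted p = 0.282), RPL3L 0.00 ± 0.04 (adjusted p = 0.959) and RPL10L -0.08 ± 0.10 (adjusted p = 0.35). The RPL3L probe was weak, well above background in 15 of 16 unstimulated and 10 of 16 stimulated channels. Its response from the self-self arrays ran from -0.38 in FNV to 0.72 in FKN, so its narrow SD does not show a steady level. RPS27L passed at 0.19 when FNV, whose ratio was -0.11, was left out (limma adjusted p = 0.0427). Of the canonical partners RPL3, RPL7, RPL10, RPL22 and RPL26, 2 fell (RPL3 and RPL10) and 3 did not pass, where 21.0% of all features fell.

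RPL13A, a large-subunit protein that can also leave the ribosome to block translation of inflammatory mRNAs, had log2 ratios of -0.19, -0.35, -0.28 and -0.38 in FNV, FKN, FBR and FTV. The mean fell by 0.30 ± 0.08 (SD, n = 4; 1.23-fold; limma adjusted p = 0.0124). RPL28, a large-subunit protein, gave -0.31, -0.18, -0.30 and -0.36, a mean of -0.29 ± 0.08 (adjusted p = 0.0132). RPL10, which joins the large subunit last and lies near the tRNA sites, gave -0.19, -0.33, -0.20 and -0.37, a mean of -0.27 ± 0.09 (adjusted p = 0.0184). For these 3 genes all animals and 8 of 8 ratio arrays were below 0.

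RPL18, another large-subunit protein, gave -0.15, -0.28, -0.24 and -0.34 in FNV, FKN, FBR and FTV, and its mean fell by 0.25 ± 0.08 (adjusted p = 0.021). RPS26, a small-subunit protein at the mRNA exit channel that is mutated in Diamond-Blackfan anaemia, gave -0.20, -0.31, -0.20 and -0.29, a mean of -0.25 ± 0.06 (adjusted p = 0.0175). Both were lower on 8 of 8 ratio arrays. RPL3, which reaches into the peptidyl transferase centre, gave -0.21, -0.31, -0.20 and -0.23, a mean of -0.24 ± 0.05 (adjusted p = 0.0194). The even values of RPL3 hide a difference between dyes: with stimulated RNA in Cy3 its ratio lay between -0.63 and -0.43, and in Cy5 between 0.01 and 0.16, so only 4 of 8 arrays were lower.

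The 6 falls were within 1.23-fold, and their calls depended on the animals and on the scaling. Without FNV 8 members fell, without FKN 1 (RPL28), without FBR 0 and without FTV 0, while the share of all features that fell was 25.9%, 11.0%, 11.7% and 13.7%. With the scanner software's own ratios 0 members fell, where 22.3% of all features did, and with each array centred on its median 0 fell, where 10.9% of all features did. On the self-self arrays RPL28 fell, by 0.31 ± 0.07 (limma adjusted p = 0.0258), and RPL13A (-0.13), RPL10 (-0.13), RPL18 (-0.09), RPS26 (-0.05) and RPL3 (-0.07) did not pass.

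Among the other large falls by mean, RPS3, a small-subunit protein at the mRNA entry channel, gave -0.18 ± 0.09 (adjusted p = 0.0569), from -0.65 to -0.34 with stimulated RNA in Cy3 and from 0.12 to 0.32 in Cy5. RPS2, its neighbour at the entry channel, gave -0.17 ± 0.11 (adjusted p = 0.0824), RPS28 -0.16 ± 0.05 (adjusted p = 0.0623) and RPS9, also at the entry channel, -0.15 ± 0.10 (adjusted p = 0.0999). None of these passed. A list of the mRNA path and decoding side, which leaves out RPS9, had 5 measured proteins. Of these 1 fell (RPS26) and 4 did not pass, with a median of -0.17, where 21.0% of all features fell.

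Among the other large rises by mean, RPL15, a core large-subunit protein, gave 0.11 ± 0.05 (adjusted p = 0.14), RPS27A, a ubiquitin fusion, 0.08 ± 0.12 (adjusted p = 0.374), RPS23, of the decoding centre, 0.07 ± 0.10 (adjusted p = 0.428), RPL37A 0.06 ± 0.09 (adjusted p = 0.457) and RPS12 0.05 ± 0.13 (adjusted p = 0.562). RPSA, the laminin receptor precursor on the back of the small subunit, gave 0.00 ± 0.11 (adjusted p = 0.962). RPS12, RPS23 and RPL23A, named here for this pattern, passed as falls with stimulated RNA in Cy3 (-0.32, -0.24 and -0.39) and as rises with it in Cy5 (0.43, 0.37 and 0.26), so the averages of these 3 members join opposite readings.

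The acidic stalk that recruits the elongation factors is made of RPLP0, RPLP1 and RPLP2, and 0 of the 3 passed. Their means were -0.09 ± 0.06 (adjusted p = 0.221), -0.06 ± 0.09 (adjusted p = 0.441) and -0.09 ± 0.16 (adjusted p = 0.359). Of the 4 measured proteins at the nascent chain tunnel and its rim, 0 passed, with a median of -0.08; RPL22, which binds RNA and is needed in alpha-beta T cell development, gave -0.08 ± 0.04 (adjusted p = 0.228) and RPL26, a p53 mRNA binder, -0.09 ± 0.20 (adjusted p = 0.475). FAU, which encodes a small-subunit protein fused to a ubiquitin-like protein but carries no RPL or RPS name, gave -0.10 ± 0.05 (adjusted p = 0.189). By subunit, 1 of 25 large-subunit genes rose and 5 fell (median -0.08), and 0 of 14 small-subunit genes rose and 1 fell (median -0.04). Among all tested features 19.2% rose and 21.0% fell.

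The separate probes of a gene mostly gave the same value. Over the 134 tested probes 6 rose and 20 fell, where 19.9% and 20.4% of all 27493 tested probes did so, and in no gene did probes pass in opposite directions. The range between the probes of a gene was at most 0.10 except in RPL15 (0.54), RPL13A (0.51) and RPL22 (0.25).

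RPL15-685 gave 0.47, 0.74, 0.58 and 0.73 in FNV, FKN, FBR and FTV, a rise of 0.63 ± 0.13 (SD, n = 4; 1.54-fold; limma adjusted p = 0.0022), while the other 3 probes of RPL15, which start at 424, 592 and 600 in the transcript, gave 0.09, 0.14 and 0.11. All animals were above 0 at each of these probes. RPL13A-1063 gave -0.77, -0.79, -0.71 and -0.96, a fall of 0.81 ± 0.11 (1.75-fold; limma adjusted p = 0.000943), while the RPL13A probes at 542 and 551 gave -0.33 and -0.30. A probe of LOC702871, described as L13a-like, shares a run of 32 bases with RPL13A-1063 and fell by 0.81 (adjusted p = 0.001). RPL22-803 gave -0.32, -0.36, -0.29 and -0.33, a fall of 0.33 ± 0.03 (limma adjusted p = 0.00622), and the other 3 RPL22 probes lay at -0.08. In each of the 3 genes the probe that stood apart was the one farthest along the transcript. Differences between probes of a gene were described and not tested. The 1-probe rule follows the brightest probe, so the value of these 3 genes depends on it; the authors' deposited table gives RPL15 a mean log2 ratio of 0.61.

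**Figure D2:**
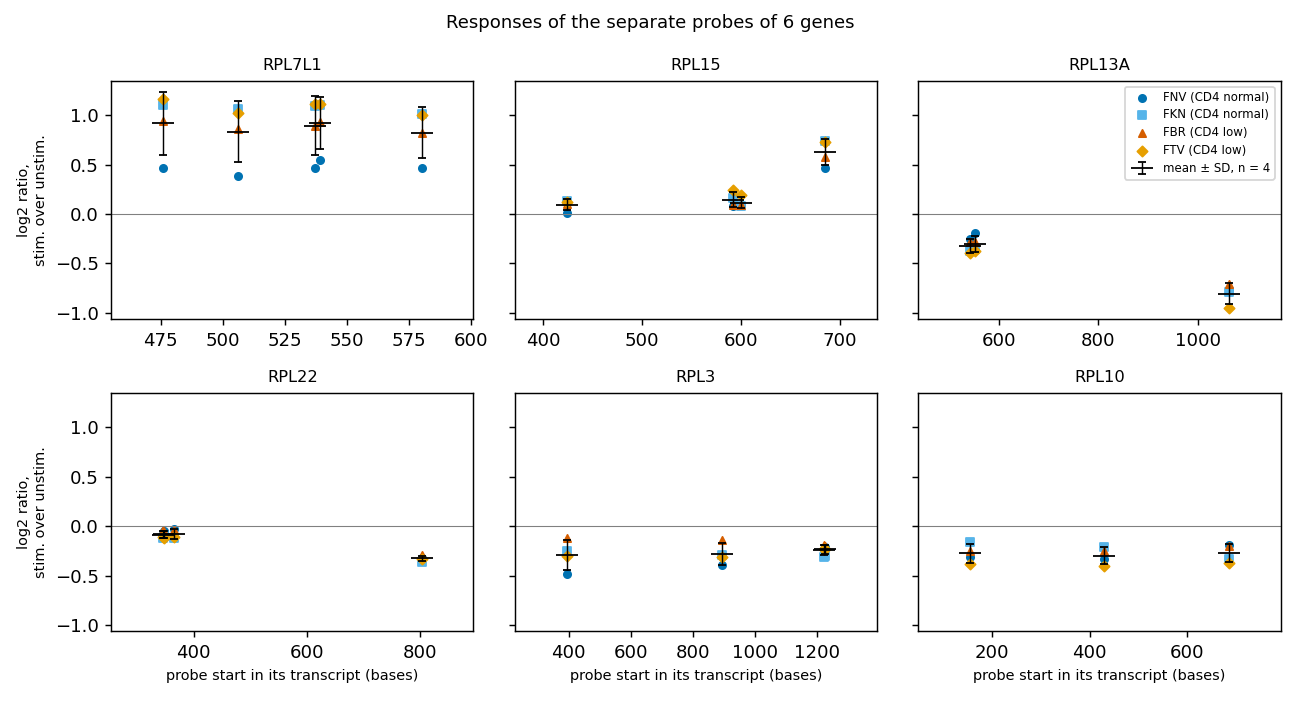
Log2 ratio of stimulated over unstimulated RNA (y axis, shared) against the start of each probe in its transcript in bases (x axis) for 6 genes, with 1 symbol per animal and a bar for the mean ± SD (n = 4). The 5 probes of RPL7L1 lie together at 0.82 to 0.92, while RPL15-685 (0.63), RPL13A-1063 (-0.81) and RPL22-803 (-0.33) stand away from the other probes of their genes.

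Of the 198 tested probes described as ribosomal proteins without a member name, 9 rose and 27 fell, with a median of -0.04, where 19.2% and 21.0% of all features did so. Of the probes described as L13A 4 of 4 fell, of S26 3 of 3, of L10 2 of 3, of S27 4 of 6, of S4 7 of 10 and of S2 2 of 6. The remaining falls were 1 probe each of L3, L18, L28, S3 and S28. Among the other names, 0 of 9 probes described as L17 and 0 of 7 described as L23A fell. Probes of 1 protein are not independent cases. None of 7 probes described as L5, 1 as L11 or 4 as S6 passed, so the proteins that bind MDM2 (L5 and L11) and the substrate of the S6 kinases (S6) had no call under these names either.

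Of the 9 that rose, 5 name L7-like 1 or L26-like 1 in their description. Features described as L7-like 1 gave 0.62, 0.85, 0.65 and 0.76, with adjusted p between 0.00274 and 0.0263, and 1 described as L26-like 1 gave 0.58 (adjusted p = 0.00134). Whether these features read the same transcripts as the RPL7L1 probes was not tested, so they are not counted as further genes. A probe of LOC695815, described as L22-like and placed at chr2:116163047-116163106 (plus strand), gave 0.88, 0.97, 0.70 and 0.96 in FNV, FKN, FBR and FTV, a rise of 0.88 (1.84-fold; adjusted p = 0.000936).
L22-like: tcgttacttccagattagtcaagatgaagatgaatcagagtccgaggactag
Of the 52 bases printed, 33 are identical to RPL22-348 in an ungapped alignment (63.5%), a gene that did not pass. The other 3 were 2 probes of LOC709964, described as L7 (0.22 and 0.26), and 1 described as S12 (0.20).

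How far the family as a whole moved depended on the scaling. Under loess within each array, the scaling used throughout, the median of the members was 0.00 in FNV, -0.12 in FKN, -0.07 in FBR and -0.12 in FTV; 20, 30, 26 and 32 of 39 members were below 0, and 15 were below 0 in all 4 animals against 2 above. With each array centred on its median alone, the medians were -0.49 in FNV and 0.23, 0.10 and 0.20 in the others, so FNV and the rest lay on opposite sides of 0. With the ribosomal protein probes kept out of the loess curve the median over members was -0.12, with the scanner software's ratios 0.01, with a loess span of 0.1 it was 0.00, and in the authors' deposited table -0.10. The direction of the family median therefore flips with the scaling, and no direction is given for it. The order of the members moved less: across the 39 members, which share arrays and brightness, the mean ratios under the other 7 scalings correlated with those under loess at 0.93 to 1.00, and at 0.85 to 1.00 without RPL7L1, which ranked highest under all 8.

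**Figure D3:**
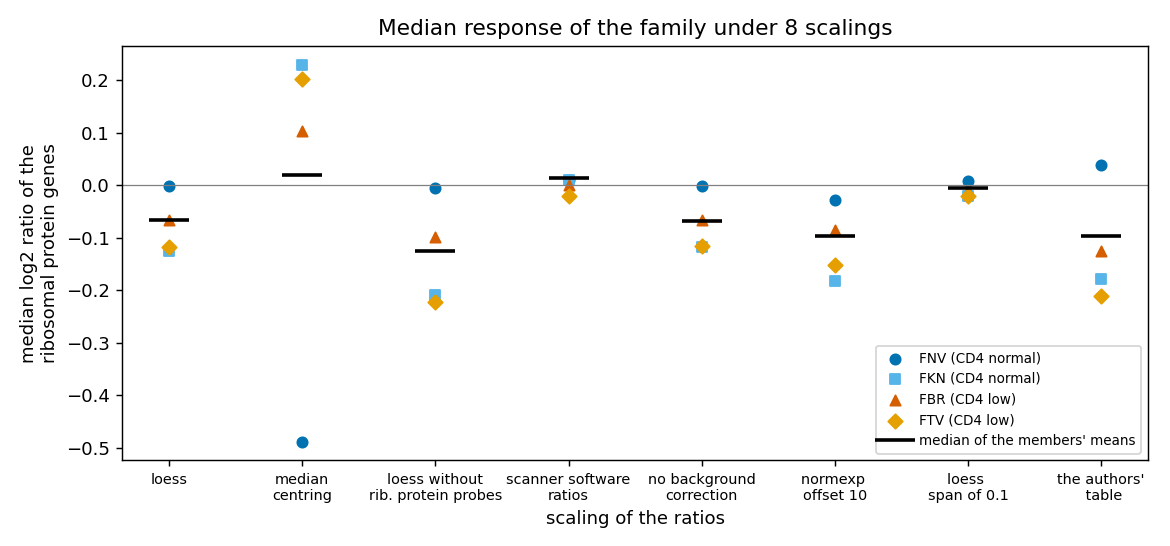
Median log2 ratio of the 39 tested ribosomal protein genes (y axis) under 8 scalings of the same arrays (x axis), with 1 symbol per animal and a mark for the median of the members' means. Median centring spreads the animals from -0.49 to 0.23, while the scanner software's ratios keep them between -0.02 and 0.01.

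The arrays themselves show the size of this uncertainty at the bright end. A self-self array holds 1 RNA in both channels, so its log2 ratio of Cy5 over Cy3 should be 0, yet the member median ranged from -0.51 on the stimulated self-self array of FTV to 0.33 on that of FKN. On the ratio arrays the median of stimulated over unstimulated was -0.05, -0.29, -0.20 and -0.22 in FNV, FKN, FBR and FTV with stimulated RNA in Cy3, and 0.01, 0.07, 0.08 and 0.02 with it in Cy5. In every animal the median was lower with stimulated RNA in Cy3 than in Cy5. No spot was saturated. Across the 38 members other than RPL7L1, the mean response on the ratio arrays and that from the self-self arrays, which hold the same RNAs on the same slides, correlated at 0.74.

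**Figure D4:**
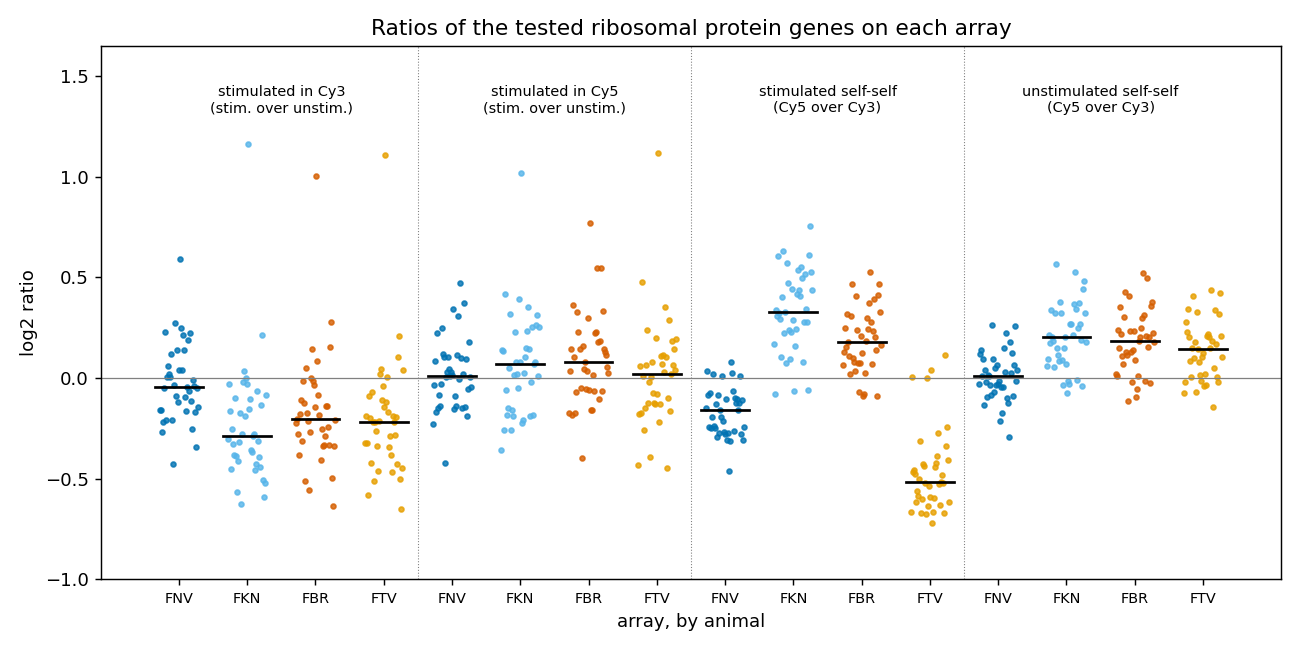
Log2 ratio (y axis) of the 39 tested ribosomal protein genes, 1 point per gene and a bar for the median, on each of the 16 arrays (x axis, by animal), with stimulated over unstimulated on the ratio arrays and Cy5 over Cy3 on the self-self arrays. The median with stimulated RNA in Cy3 lies below that with it in Cy5 in each animal, and the self-self medians reach from -0.51 to 0.33.

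Setting each ratio against the family median of its own array asks which members differ from the rest of the family. RPL7L1 lay 0.96 ± 0.34 above (limma adjusted p = 0.00424). RPL13A lay 0.23 below (-0.23, adjusted p = 0.0251), RPL28 at -0.22 (adjusted p = 0.0457), RPL10 at -0.20 (adjusted p = 0.0405) and RPS26 at -0.18 (adjusted p = 0.0484). RPL18 (adjusted p = 0.0516) and RPL3 (adjusted p = 0.0642) did not pass, and neither did the other 32. On this scale 22.6% of all features rose and 16.3% fell.

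The animals agreed on the order of the members to different degrees. Without RPL7L1, the members' ratios correlated across 38 members at 0.77 between FBR and FTV and 0.74 between FKN and FTV, and at 0.24 between FNV and FKN. FNV lies on a slide scanned earlier. On its ratio arrays 54.3% to 64.8% of spots were well above background in a channel, against 58.2% to 65.0% in the other animals. Its stimulated self-self array, which these ratios do not use, had 33.3% and 37.6%, against 57.0% to 62.0% in the others. That array does enter the stimulated levels of FNV, and so its stimulated marker sums. It also enters the comparison of stimulated levels by CD4 status and the response of FNV from the self-self arrays. Each animal has its own slide, so slide and animal cannot be told apart.

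Markers of other blood cells differed between the animals, and those of monocytes and B cells were highest in FNV. Bright probes weigh most in a summed level. In unstimulated cells the monocyte marker LYZ stood at 16.48 in FNV, and the NK cell marker KLRD1 at 12.08 in FTV. Each T cell marker except CD27 was lowest in FNV. Among them LCK stood at 7.01 in FNV against 8.94 to 9.35 in the others, and CD3E at 12.15 against 13.20 to 13.34. CD27 was highest in FNV, at 13.50 against 12.67 to 13.26. The summed level of the 7 monocyte markers in unstimulated cells was 16.70 in FNV on the log2 scale, against 12.30 to 13.34 in the others, and 15.14 against 11.94 to 12.62 after stimulation; all 7 were above background in every unstimulated channel. The summed level of the 4 B cell markers was 13.66 in FNV against 10.97 to 11.75 unstimulated, and 11.19 against 9.52 to 9.91 stimulated. With stimulation 0 of 7 monocyte markers rose and 4 fell (median -0.87), with 3 that fell without FKN and 3 without FTV. Of the B cell markers 1 rose and 2 fell (median -0.63). Beside these and the marker counts below, 19.2% of all features rose and 21.0% fell. The share of all features that fell was 25.9% without FNV, 11.0% without FKN, 11.7% without FBR and 13.7% without FTV. The summed level of the 4 NK cell markers was highest in FTV, at 12.29 against 8.60 to 9.22 unstimulated. The single markers were mixed. KLRD1 and KLRF1 were highest in FTV, KLRF1 at 8.92 against 6.41 to 6.62. NCAM1 was highest in FNV, at 7.70 against 6.87 in FTV, and NCR1, at 6.39 to 6.59, was too weak to be tested. Of the 4 markers 1 was above background in every channel, and 0 of 3 tested passed. For the 5 red cell and platelet markers the summed level was lowest in FNV, at 12.50 against 14.75 to 15.49 unstimulated. PPBP and PF4 were not lowest in that animal. Of the 5, 1 fell with all animals, 2 without FNV and 0 without FKN, FBR or FTV. The 10 T cell markers stood at 16.01 in FNV against 16.57 to 16.66, with 3 that rose and 4 that fell on stimulation, among them CD3D (0.89) and the costimulatory receptor CD27 (-1.78). CD4 mRNA, which the labelled cell type should lack as protein, was above background in 16 of 16 channels of each condition. The part of these other cells in the members' responses was not tested; without FNV the rise of RPL7L1 was 1.03 (limma adjusted p = 0.00105).

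Of 19 tested genes for partners and chaperones of ribosomal proteins and for assembly factors of both subunits, 15 rose and 0 fell, with a median of 0.77. Over all features 19.2% rose and 21.0% fell. Under median centring 11 of the 19 rose, where 6.9% of all features did. On the self-self arrays taken without the pairing by animal 6 rose, where 4% of all features did. RPF2, which brings the 5S particle to the large subunit, rose by 2.03 ± 0.28 (SD, n = 4; 4.08-fold; limma adjusted p = 0.000621), with 2.10, 1.98, 1.69 and 2.35 in FNV, FKN, FBR and FTV. BYSL, a late assembly factor of the small subunit, rose by 1.74 ± 0.38 (3.34-fold; adjusted p = 0.00121), and PNO1, which acts at the same stage, by 1.27 ± 0.24 (2.41-fold; adjusted p = 0.00101). The 4 that did not pass were ZNF622 (-0.11), the RPS26 chaperone TSR2 (-0.06), the RPL5 and RPL11 target MDM2 (0.18) and AAMP (0.16). The 55 mitochondrial ribosomal protein genes build the separate ribosome of that organelle. Against the same 19.2% and 21.0% over all features, 32 of them rose and 1 fell, with a median of 0.34. That count of rises was 21 without FKN, 7 under median centring, and 35, 25 and 23 without FNV, FBR and FTV, where 10.5%, 6.9%, 24.6%, 11.2% and 12.6% of all features rose.

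Of 18 other tested genes with TOP mRNAs, mostly translation factors, 3 rose and 3 fell, with a median of -0.10, near the shares of 19.2% and 21.0% over all features. EEF1B2, an exchange factor subunit of translation elongation, rose by 0.49 ± 0.11 (adjusted p = 0.00351), the splicing factor HNRNPA1 by 0.45 ± 0.25 (adjusted p = 0.0243) and BTF3, of the nascent chain complex, by 0.25 ± 0.09 (adjusted p = 0.0233). EEF2, the translocation factor, fell by 0.43 ± 0.23 (adjusted p = 0.0212), EIF3F by 0.35 ± 0.11 (adjusted p = 0.0108) and EIF4B, a helper of the initiation helicase, by 0.25 ± 0.05 (adjusted p = 0.0167). Without FKN or FBR 1 of the 18 rose and 0 fell, and without FTV 1 rose and 3 fell. Without FNV 4 rose and 4 fell. Among all features 10.5% rose and 11.0% fell without FKN, and 11.2% and 11.7% did without FBR. Those shares were 12.6% and 13.7% without FTV, and 24.6% and 25.9% without FNV. Under median centring 0 of the 18 rose and 0 fell, where 6.9% and 10.9% of all features did. Of 9 tested regulators of TOP mRNAs, LARP1, which holds them untranslated, rose by 0.83 ± 0.27 (1.78-fold, limma adjusted p = 0.00421). TSC2, an inhibitor of mTOR, fell by 0.57 ± 0.17 (1.49-fold, limma adjusted p = 0.00466), and 7 did not pass. Under median centring 0 of these 9 rose and 0 fell.

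The comparison by CD4 status set the 2 animals labelled low against the 2 labelled normal. For the response, the unstimulated level and the stimulated level, 0 of 23267 features (0%) passed limma's test at an adjusted p under 0.05, and 498, 396 and 506 had an unadjusted p under 0.05. Of the 39 members 0 passed and 0 had an unadjusted p under 0.05 in any of the 3. The number of animals, 2 a side, limits this comparison, and a missed threshold does not show equal levels. Leaving out FKN, so that FNV alone stood for normal status and its spread was taken from the low animals, gave 3 members in the stimulated level (RPL7L1 1.75, RPS27L 0.91 and RPL9 -0.93, low minus normal), among 3309 of 23267 features; leaving out any other animal gave 0.

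For the response, the 2 groups did not overlap in 9 of 39 members, 3 higher and 6 lower in the low animals, where 26.8% of all features did not overlap. For the unstimulated level it was 11 (3 higher and 8 lower; 33.8% of all features) and for the stimulated level 9 (1 higher and 8 lower; 33.9%). The differences in level, low minus normal, ran from -0.37 (RPL9) to 0.65 (RPL7L1) unstimulated and from -0.45 to 0.87 (the same genes) stimulated, and both of these genes overlapped between the groups. RPL9 stood at 16.18 in FNV and at 15.50, 15.43 and 15.51 in FKN, FBR and FTV without stimulation, so FNV was apart from the other 3 and not the normal animals from the low.

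**Figure D5:**
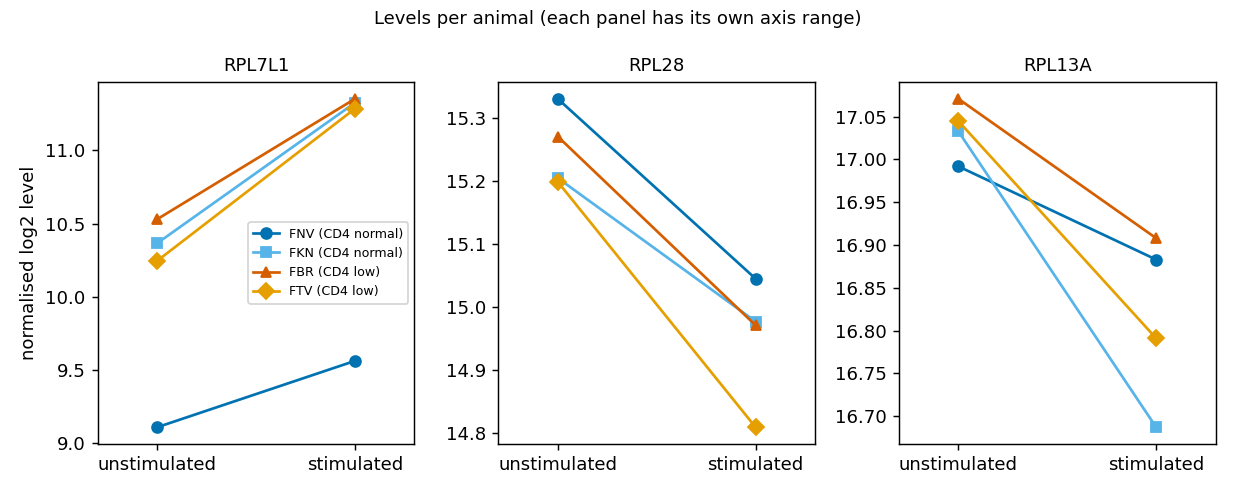
Normalised log2 level (y axis, a range of its own in each panel) of RPL7L1, RPL28 and RPL13A in unstimulated and stimulated cells, with 1 line per animal. RPL7L1 rises in each animal, from 9.11 to 9.56 in FNV, and RPL28 and RPL13A fall in each, RPL28 from 15.33 to 15.05 in FNV.

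The levels of the 6 members that fell are given beside the spread between animals. RPL13A stood at 16.99, 17.03, 17.07 and 17.05 in unstimulated cells of FNV, FKN, FBR and FTV and at 16.88, 16.69, 16.91 and 16.79 in stimulated cells, so the conditions did not overlap. RPL28 stood at 15.33, 15.20, 15.27 and 15.20 unstimulated and at 15.05, 14.98, 14.97 and 14.81 stimulated, again with no overlap. RPL10 stood at 16.63, 16.72, 16.74 and 16.74 unstimulated and at 16.46, 16.53, 16.58 and 16.47 stimulated, also without overlap. RPS26 varied more between animals than with stimulation, at 16.04, 16.65, 16.18 and 16.64 unstimulated and 15.87, 16.51, 16.09 and 16.45 stimulated, with FNV and FBR low in both conditions. RPL18 stood at 17.05, 16.95, 17.04 and 17.03 unstimulated and at 16.97, 16.81, 16.82 and 16.80 stimulated, and RPL3 at 17.68, 17.63, 17.55 and 17.40 unstimulated and at 17.46, 17.50, 17.46 and 17.24 stimulated. The conditions overlap across animals in RPS26, RPL18 and RPL3. The widest range between animals among the tested members was that of RPL7L1 (1.42 unstimulated), followed by RPS27L (0.96), RPL9 (0.75) and RPL10L (0.75).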

How the data were processed

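Double-negative T cells of 4 animals were measured on 16 Agilent arrays with 2 colours. The authors deposited unnormalised linear intensity of each spot and its background, with spot flags and the scanner software's log10 ratio, written by Agilent Feature Extraction (version 10.7.3.1, file headers). A table of the whole series holds the authors' log2 ratio per animal; its centring and background correction are not given in the sources used here. Positions are on rheMac2, per the file headers.

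Ratios were computed in R 4.3.3 with limma 3.58.1 (normexp background correction with an offset of 50, loess within arrays, outlier spots left out), ratios were turned to stimulated over unstimulated and the dye-swapped arrays averaged within each animal, so n = 4 animals. Probes had to be well above background on both ratio arrays in a condition in at least 2 animals. Each symbol was represented by its brightest probe. Each of the 23267 features was tested with lmFit and eBayes and Benjamini-Hochberg adjustment, and an adjusted p under 0.05 was called. Levels used Aquantile normalisation. Summed marker levels are the log2 of summed linear levels. The test was checked on simulated data. The number of arrays and animals limits the precision.

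On 1 ratio array of FNV the title and a channel 2 characteristic name different RNAs; the title was followed, and an alternative omits that array. Animal numbers pair the conditions, because both RNAs of a number come from the same animal. Members and gene lists were chosen with earlier results of these data known. Named were the 10 largest rises and falls among members, the members of the role lists, and the 3 largest passing rises and falls of the related lists. Alternatives were other scalings, filters, probe rules, dye orientations, self-self arrays and each animal left out. One item that the rule for names covers is not reported here. Figures were drawn with matplotlib 3.10.9.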

Additional observations from a re-analysis of the deposited data

Results flagged for a closer look

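Of the 79 groups of 4 animals examined, 6 held an animal whose gap to its nearest neighbour exceeded Dixon's critical share of the group's range; chance alone gives about 1 in 20. FNV was the animal apart in 2 of them. In stimulated cells RPL7L1 stood at 9.56 in FNV against 11.28 to 11.35 in the others, and RPL18 at 16.97 in FNV against 16.80 to 16.82. These stimulated levels of FNV include its stimulated self-self array, on which fewer spots were above background. RPL18 in unstimulated cells stood at 16.95 in FKN against 17.03 to 17.05. FTV was apart in RPL3 in stimulated cells (17.24 against 17.45 to 17.50), in the response of RPL15 (0.194 against 0.0821 to 0.0932) and in the response of RPS2 (-0.3346 against -0.1264 to -0.1058). No cause of these values was tested.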

How the results depend on the processing

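RPL7L1 ranged from 0.75 to 1.03 over its 22 alternatives and kept its call in 20. It missed the test under median centring (adjusted p = 0.0651) and on the self-self arrays with no replicate block (adjusted p = 0.478). The count of members that rose was 1; it was 0 under median centring and on the self-self arrays with no replicate block, 2 with the mean over probes and in the authors' table, 5 with stimulated RNA in Cy5 only, 6 as a count of every probe, and 1 to 2 with 1 animal left out. The count that fell was 6. It was 0 under median centring, with the scanner software's ratios and on the self-self arrays with no replicate block. It was 1 on the self-self arrays with the replicate block, 15 with stimulated RNA in Cy3 only and 3 in Cy5 only. As a count of every probe it was 20, and with 1 animal left out 0 to 8. Over all features 21.0% fell, and 10.9% did under median centring, 22.3% with the scanner's ratios and 4.5% with no replicate block. That share was 16.8% with the block, 21.3% in Cy3 only and 20.7% in Cy5 only. The share of all features that rose was 19.2%, against 6.9% under median centring, 4% with no replicate block and 19.8% in Cy5 only. The member median was -0.07; it was 0.0204 under median centring, -0.12 with loess without ribosomal protein probes, 0.0145 with the scanner's ratios, -0.16 in Cy3 only, 0.0478 in Cy5 only, and -0.09 to -0.05 with 1 animal left out. Centring on the family (0.0053) and a loess span of 0.1 (-0.004) were chosen after seeing the data. Of the genes named by the rule, single values reversed in RPL3 (0.0478 in Cy5 only), RPS12 (-0.32 in Cy3 only) and RPS23 (-0.24 in Cy3 only). A change of sign was counted as a reversal only where the main or the alternative value passed the test. Signs also changed with neither value passing, among others in RPS3 (0.19 in Cy5 only), RPS28 (0.10 in Cy5 only) and RPL15 (-0.14 in Cy3 only). RPL23A, which the rule does not name, turned from -0.07 to a rise of 0.26 in Cy5 only. Without FKN, the stimulated level by CD4 status gave 3 member calls. Over single named genes, 743 values kept their side of the threshold, 89 lost it, 19 gained it and 3 reversed. The pairing by animal is part of every ratio, so the replicate block applies only to the self-self arrays.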
